A study of Mus musculus with 6 samples.

Results

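The genes described here encode the secreted and membrane-bound metalloproteinases of the ADAMTS and MMP families, the ADAMTS-like proteins, and TIMPs, the tissue inhibitors of metalloproteinases. They were taken by symbol from all genes of the array, and 49 of 22180 measured genes belong to them. The 49 comprise 18 ADAMTS, 5 ADAMTS-like, 22 MMP and 4 TIMP genes. Of 51 such protein-coding genes in the RefSeq annotation, Adamts2 and Mmp15 had no probe set naming them alone and were not analysed here. RNA came from mouse cumulus-oocyte complexes (COCs), each an immature oocyte enclosed by its somatic cumulus cells, taken from wildtype females given 5 IU of the gonadotropin eCG per mouse 46 h earlier to grow their follicles. In the labels the age stands as both 21 and 23 days and the culture time as both 14 and 16 h. In each of 3 control and 3 treated samples, 100 COCs were kept in medium with DMSO, the solvent, or with Torin1, an inhibitor of the kinase MTOR, at 5 µM. Milrinone, which blocks the oocyte phosphodiesterase PDE3 and so holds meiosis at arrest, was present in both groups at 5 µM, as was albumin at 3 mg/ml. Whether the 3 samples of a group came from separate mice or cultures is not stated, so p-values rest on a spread between samples that may be technical.

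ADAMTS proteases are secreted enzymes with a catalytic zinc site and thrombospondin repeats, and several of them cleave large proteoglycans such as versican and aggrecan. MMPs are made as inactive proenzymes and cleave collagens, gelatin and other matrix proteins, while membrane-type MMPs do so at the cell surface. TIMPs block the active site of MMPs, and TIMP3 also inhibits ADAMTS proteases. In the ovulating follicle these enzymes act on the follicle wall and on the hyaluronan matrix that cumulus cells build around the oocyte, in which versican is a substrate of ADAMTS1.

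The study asked which transcripts differ between COCs cultured with Torin1 and with DMSO. Values are log2(intensity + 1) of the probe set kept for each gene, and a difference is the Torin1 mean minus the DMSO mean. A gene was called where limma, fitted over all genes, gave a Benjamini-Hochberg adjusted p below 0.05. Array medians ran from 11.1 to 11.97 intensity units on the linear scale. All 16 oocyte markers and all 13 cumulus and granulosa markers that were measured stood above the 95th percentile of 1394 olfactory and vomeronasal receptor genes in at least 1 group. These receptor genes belong to sensory neurons and served as a reference for dim probe sets, with a 95th percentile of 3.70 in DMSO and 3.76 in Torin1. Of the cumulus markers 12 fell and 0 rose, and their summed intensity ran from 6818 to 6997 in DMSO and from 3439 to 3819 in Torin1. The oocyte markers summed to 6901 to 7348 in DMSO and 7681 to 8483 in Torin1, with 2 of 16 called higher and 0 lower (10 at an unadjusted limma p below 0.05). The cumulus markers did not differ by a common amount. Their median difference was -1.52, with Fshr at -2.78, Inha at -0.42 and Gja1 at -0.38. Nr5a1, the cumulus marker without a call, was at 0.004. The part of fewer cumulus cells, less RNA per cumulus cell or changes of single genes in these differences was not tested. Of 14 leukocyte markers 12 lay within the receptor genes' range in both groups, Ptprc, Lyz2 and Itgam among them. The list summed to 131 to 143 in DMSO and 143 to 150 in Torin1, and 1 marker, Cd68, rose. Of 10 endothelial markers 6 lay in that range, Vwf, Tie1 and Emcn included, and the list summed to 158 to 160 in DMSO and 199 to 314 in Torin1. The adhesion gene Cdh5 rose by 2.33, from a mean of 4.10 to 6.43, Egfl7 fell by 0.40 and the other 8 were not called. Cdh5 alone made up most of the rise of this sum. Theca and stroma markers summed to 487 to 549 in DMSO and 203 to 217 in Torin1, with Cyp17a1, Dcn and Lum in the receptor range. Of the 12 measured, 1 rose (Star, by 0.50), 2 fell (Acta2, by 2.87, and Pdgfra, by 0.82) and 9 were not called. Without Acta2 the other 11 summed to 177 to 185 in DMSO and 154 to 169 in Torin1. The part of these marker differences in the results below was not tested.

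Among the 49 genes, 4 rose and 6 fell with Torin1, and 39 were not called. The risers were Adamts1, Timp3, Mmp2 and Mmp16, and those that fell were Mmp23, Adamts19, Mmp11, Adamts9, Adamtsl2 and Adamts12. The 10 calls make 20.4% of the family, beside 12.1% of all genes. By direction, 8.16% were called higher and 12.2% lower, against 5.13% and 6.94% of all genes. The median difference was 0.02 over the 49 genes and 0.01 over all genes, so the family had no common direction. In 15 of 49 genes (30.6%) the DMSO and Torin1 values did not overlap, beside 28.6% of all genes, and all 10 called genes were among the 15. Of the 49 genes 17 lay within the receptor genes' range in both groups, and 0 of these were called by limma (0 at an unadjusted p below 0.05). The same range held 8954 of all genes, of which only 0.614% were called. The call count of the 49 genes ran from 8 to 13 when any 1 array was left out. The count over all genes, 2678, fell to 1730 without DMSO 1, 1763 without DMSO 2 and 1518 without DMSO 3.

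**Figure D1:**
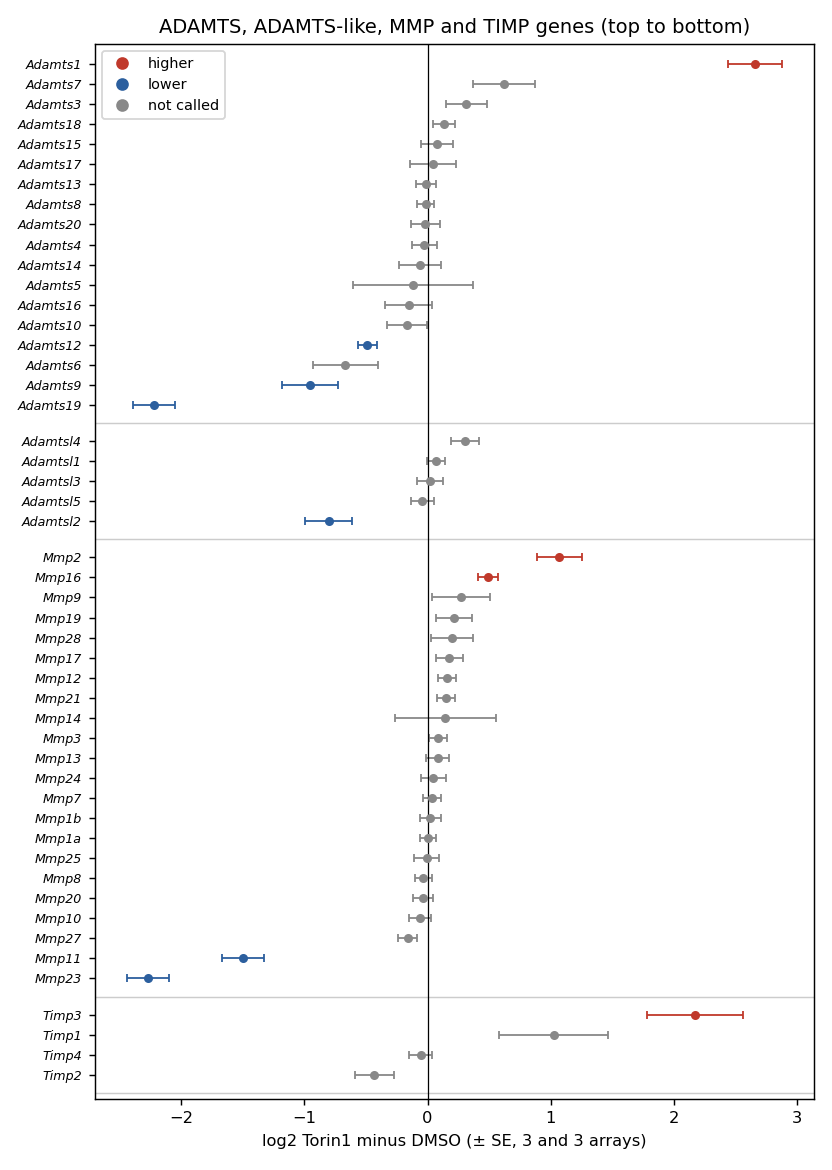
Difference in log2(intensity + 1), Torin1 minus DMSO, for each of the 49 genes with its standard error (3 arrays in each group), in panels from top to bottom for ADAMTS, ADAMTS-like, MMP and TIMP genes. Adamts1 stands highest at 2.66 and Mmp23 lowest at -2.27, while most genes lie near 0; colours give the limma call.

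Of the 18 ADAMTS genes 1 rose, 3 fell and 14 were not called. Adamts1 had the largest rise of the 49 genes. It encodes the protease that cleaves versican in the matrix of the ovulatory COC. Its DMSO arrays read 4.23, 4.49 and 4.49 and its Torin1 arrays 6.78, 6.83 and 7.59. Every Torin1 value lay above every DMSO value, and the third Torin1 array was the highest. The rise was 2.66 ± 0.22 (SE; adjusted p = 0.000595, limma), or 6.33-fold on this scale, and ranked 45 among rises of all genes. It passed in each of 6 leave-one-out fits, and without Torin1 3 it measured 2.40, or 5.27-fold. Because Adamts1 led the rises, the 250 bases before its start are shown, from RefSeq on GRCm38.p6, chr16:85803114-85803363, minus strand. Capitals mark TATAAA at -32 to -27 from the start, the core of a TATA box.

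Adamts1: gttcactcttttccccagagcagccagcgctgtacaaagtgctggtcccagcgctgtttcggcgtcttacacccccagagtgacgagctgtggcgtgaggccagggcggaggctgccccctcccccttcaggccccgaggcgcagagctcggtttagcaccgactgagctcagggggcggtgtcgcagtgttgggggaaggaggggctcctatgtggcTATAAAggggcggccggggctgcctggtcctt

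TATAAA, searched on both strands, was found in the corresponding window of 10 of 37 promoters that the table holds for 34 family genes, and in 12.4% of all 32851 promoters. Outside the row of neighbouring Mmp genes described below, only Adamts1, Adamtsl2 and Mmp21 had this motif. Adamtsl2, which fell, has TATAAA at -30 to -25, so the 2 called genes with this motif went in opposite directions. No TGANTCA (the AP-1 motif), TGACGTCA (the cAMP response element) or GCGNGGGCG (an EGR motif) was found in the Adamts1 window.

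Of the other proteoglycan-cleaving ADAMTS genes named here, Adamts9 fell and Adamts4 and Adamts5 were not called. Adamts9, whose product cleaves versican and aggrecan, read 6.11, 6.85 and 6.94 in DMSO and 5.47, 5.69 and 5.87 in Torin1. Its groups did not overlap, though DMSO 1 lay 0.24 above the highest Torin1 value. It fell by 0.95 ± 0.23 (SE; adjusted p = 0.0362, limma). Leaving out DMSO 2, DMSO 3, Torin1 1 or Torin1 2 lost the call, with an adjusted p of at most 0.119. Adamts4, an aggrecanase gene, stayed between 3.95 and 3.98 in DMSO and read 4.05, 4.03 and 3.72 in Torin1, with overlapping groups and a difference of -0.03 ± 0.10 (adjusted p = 0.940). Adamts5, the other classical aggrecanase gene and the direct neighbour of Adamts1 in the RefSeq annotation, read 4.30, 3.77 and 4.05 in DMSO. Its Torin1 arrays read 3.15, 3.46 and 5.16, so that the first and second lay below all DMSO values and the third above them. The difference of -0.12 ± 0.49 was not called (adjusted p = 0.945).

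Adamts19, an orphan protease gene of the family with poorly known substrates, showed the largest fall among ADAMTS genes. DMSO arrays read 7.53, 7.26 and 7.27 and Torin1 arrays 5.36, 4.76 and 5.29, with 1.91 between the nearest values of the groups. The difference was -2.22 ± 0.17 (SE; adjusted p = 0.000479, limma) and DMSO was 4.66-fold above Torin1. It ranked 47 among falls of all genes. Adamts12, which encodes a protease of cartilage oligomeric matrix protein, fell by a smaller amount with a narrow spread, from 4.78, 4.80 and 4.84 to 4.29, 4.42 and 4.23. Its difference was -0.49 ± 0.08 (SE; adjusted p = 0.00887), and both this gene and Adamts19 passed in each of 6 leave-one-out fits.

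Adamts7, a further protease of cartilage oligomeric matrix protein, read 5.16, 5.25 and 5.67 in DMSO and 5.54, 5.91 and 6.51 in Torin1, and these groups overlapped. Its difference of 0.63 ± 0.25 was not called (adjusted p = 0.186). Adamts6, whose product acts on fibrillin microfibrils, read 6.01, 5.57 and 5.73 against 5.04, 4.59 and 5.69. Its difference of -0.67 ± 0.27 was not called either (adjusted p = 0.182). The remaining 11 ADAMTS genes are those without a call besides Adamts5, Adamts6 and Adamts7, so 0 calls among them follow from the choice. Adamts6 and Adamts7 were set apart after their values were seen. The 11 genes ran from -0.17 for Adamts10 to 0.32 for Adamts3, with 0 at an unadjusted limma p below 0.05. They include the procollagen propeptidase genes Adamts3 and Adamts14, Adamts13, whose product cleaves von Willebrand factor, and Adamts8, Adamts15, Adamts16, Adamts17, Adamts18 and Adamts20.

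**Figure D2:**
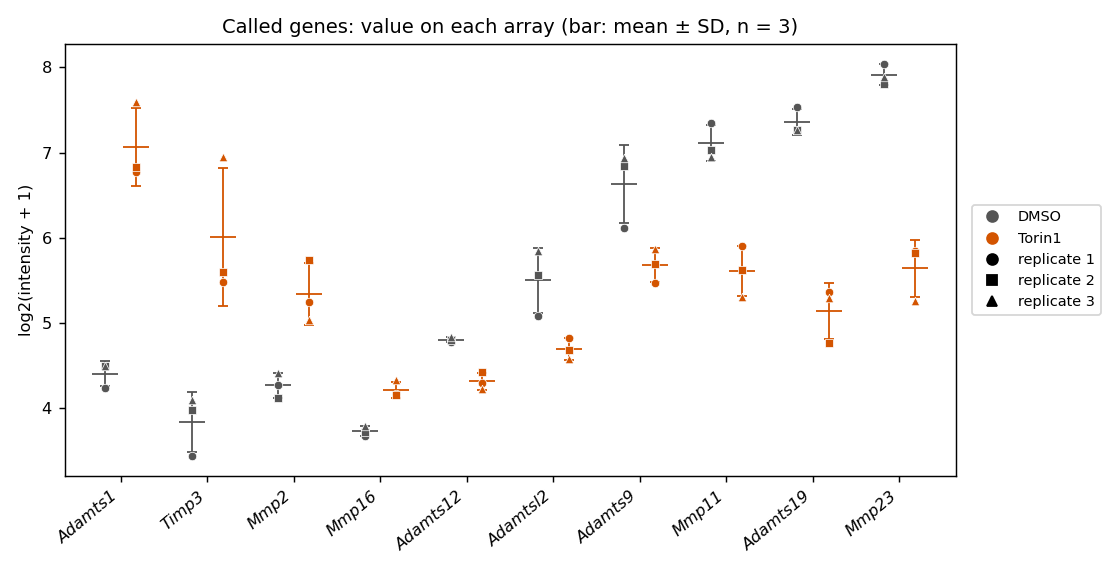
Values of the 10 called genes on each array as log2(intensity + 1), ordered by difference; symbols give the replicate and horizontal and vertical bars the mean and SD of 3 arrays. In each gene the 3 Torin1 values lie wholly above (Adamts1, Timp3, Mmp2, Mmp16) or wholly below the 3 DMSO values.

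ADAMTS-like proteins have the ancillary domains of the family but no catalytic domain. Adamtsl2, whose product binds fibrillin microfibrils, read 5.09, 5.56 and 5.85 in DMSO and 4.83, 4.68 and 4.57 in Torin1. The groups did not overlap, but the DMSO arrays spread over 0.76. It fell by 0.80 ± 0.19 (SE; adjusted p = 0.0343, limma). That call held without DMSO 1 and was lost without any of the other 5 arrays (adjusted p up to 0.110). Adamtsl4 read 3.69, 3.71 and 3.70 in DMSO and 4.25, 3.86 and 3.90 in Torin1, without overlap and without a call (0.31 ± 0.11, adjusted p = 0.152). Adamtsl1, Adamtsl3 and Adamtsl5 differed by 0.07, 0.02 and -0.04 and were not called.

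Of the 22 MMP genes 2 rose, 2 fell and 18 were not called. The largest fall of the 49 genes was in Mmp23, which encodes a small membrane-anchored MMP without the hemopexin domain of most others. It read 8.04, 7.80 and 7.89 in DMSO and 5.85, 5.82 and 5.25 in Torin1. The nearest values of the groups lay 1.95 apart, more than the range within either group. The difference was -2.27 ± 0.17 (SE; adjusted p = 0.000412, limma), DMSO was 4.83-fold above Torin1, and the rank among falls of all genes was 41. Mmp11, for stromelysin-3, an MMP that furin activates inside the cell, fell from 7.35, 7.03 and 6.95 to 5.90, 5.62 and 5.31. That fall of 1.50 ± 0.17 (SE; adjusted p = 0.00223) left DMSO 2.83-fold above Torin1. Mmp23 and Mmp11 passed in each of 6 leave-one-out fits.

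Mmp2 rose, and with it the membrane-type gene Mmp16. Mmp2 encodes gelatinase A, which is activated at the cell surface by MMP14 in a complex with TIMP2. DMSO arrays read 4.27, 4.12 and 4.41 and Torin1 arrays 5.24, 5.74 and 5.04. The groups were separate, and the rise of 1.07 ± 0.18 (SE; adjusted p = 0.0105, limma) came to 2.10-fold. Mmp16 read 3.67, 3.71 and 3.79 in DMSO, at the edge of the receptor genes' range, and 4.17, 4.15 and 4.32 in Torin1. It rose by 0.49 ± 0.08 (SE; adjusted p = 0.00949), and because its level was low in both groups the size of this rise is uncertain. Both genes passed in each of 6 leave-one-out fits.

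Mmp14, for the membrane-type enzyme that activates proMMP2, differed among the Torin1 arrays more than between groups. It read 7.32, 7.61 and 7.62 in DMSO and 8.01, 8.35 and 6.62 in Torin1. Torin1 1 and 2 lay above all DMSO values and Torin1 3 below them, and the difference of 0.15 ± 0.41 was not called (adjusted p = 0.910). Mmp9, the gelatinase B gene, read 3.46, 3.64 and 3.45 against 3.58, 3.42 and 4.37 and was not called (adjusted p = 0.601). Mmp19 read 3.47, 3.71 and 3.63 against 3.97, 3.98 and 3.51, also without a call (adjusted p = 0.462). Along with Mmp9 and Mmp19, the other MMP genes outside the gene row described next were Mmp17, Mmp21, Mmp24, Mmp25 and Mmp28. These 7 were taken from the genes without a call, so 0 calls among them follow from the choice. They ran from -0.01 for Mmp25 to 0.27 for Mmp9, with 0 at an unadjusted limma p below 0.05.

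Mmp13, Mmp12, Mmp1b, Mmp3, Mmp1a, Mmp10, Mmp8, Mmp27, Mmp20 and Mmp7 follow each other without another protein-coding gene between them in the RefSeq annotation. They encode collagenases, stromelysins, macrophage elastase, enamelysin and matrilysin. Their group means ran from 2.15 to 4.05, and 9 of 10 lay within the receptor genes' range in both groups. Mmp12, the macrophage elastase gene, was the exception, at 3.84, 3.95 and 3.88 in DMSO (mean 3.89) and with a Torin1 mean of 4.05 ± 0.05 (SD, n = 3), not called (adjusted p = 0.237). Differences ran from -0.16 for Mmp27 to 0.16 for Mmp12, and 0 of 10 were called by limma (0 at an unadjusted p below 0.05). Among all genes within the receptor genes' range in both groups only 0.614% were called. At such levels, absence of a transcript and a level below what these arrays resolve cannot be told apart.

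The promoters of the 10 genes were read for the AP-1 motif, beside a list of FOS and JUN genes without Jund. Of the 5 listed genes that were measured, 3 rose on the same arrays, and a link to the 10 genes was not tested. AP-1 is a dimer of FOS and JUN proteins, and Fosb, Jun and Junb rose by 2.63 ± 0.26, 2.03 ± 0.15 and 2.75 ± 0.17 (SE; adjusted p up to 0.00119). Fos and Fosl2, at 0.24 ± 0.23 and 0.35 ± 0.18, were not called (adjusted p = 0.645 and 0.320, limma). The AP-1 motif TGANTCA, searched on both strands within 250 bases before the start, was found in 8 of the 12 promoters that the table holds for these 10 genes, each of a different gene. It was not found for Mmp27 and Mmp8, nor in a second promoter of Mmp12 and of Mmp7. It was found in 0 of 25 promoters of the other 24 family genes and in 6.75% of all 32851 promoters. The 8 matches lie in related neighbouring genes, and the Mmp1a and Mmp1b windows are nearly alike, so they are not independent of each other. A match describes letters and not a site in use. The 8 matches are shown with 20 bases on either side, 5′ to 3′ in the direction of each gene, from RefSeq on GRCm38.p6, with the motif in capitals.

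Mmp13: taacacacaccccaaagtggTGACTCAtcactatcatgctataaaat
Mmp12: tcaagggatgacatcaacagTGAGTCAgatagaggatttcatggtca
Mmp1b: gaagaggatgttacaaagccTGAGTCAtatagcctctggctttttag
Mmp3: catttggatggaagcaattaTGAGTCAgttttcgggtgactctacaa
Mmp1a: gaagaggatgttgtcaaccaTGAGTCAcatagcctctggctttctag
Mmp10: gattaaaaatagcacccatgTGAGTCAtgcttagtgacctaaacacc
Mmp20: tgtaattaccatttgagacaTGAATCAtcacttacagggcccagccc
Mmp7: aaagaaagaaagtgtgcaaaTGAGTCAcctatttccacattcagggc

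The windows all lie on chr9, from chr9:7272459-7272505 for Mmp13 to chr9:7692007-7692053 for Mmp7, on the plus strand except Mmp1b. Motif positions ran from -95 to -89 in Mmp20 down to -35 to -29 in Mmp13. The 4 called risers carried no such match where a promoter was in the table (Adamts1 and Timp3), and none was in the table used here for Mmp2 or Mmp16. GCGNGGGCG was found in Mmp11, Mmp14, Mmp24 and Adamts14, or 4 of 37 promoters beside 4.70% of all promoters, and TGACGTCA in 0 of 37 beside 1.55%.

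**Figure D3:**
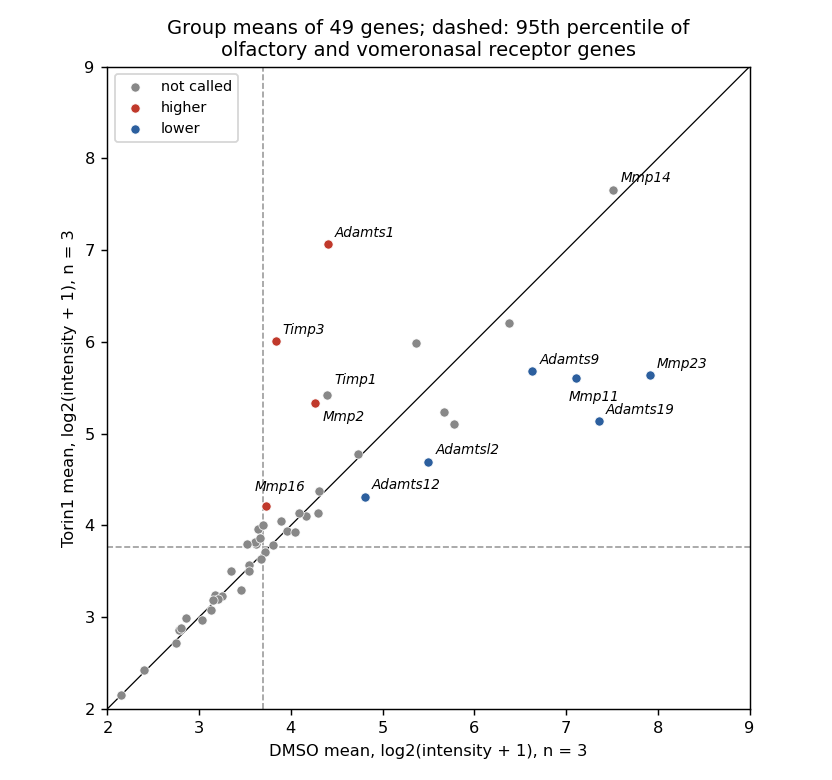
Mean log2(intensity + 1) of each of the 49 genes in DMSO (horizontal) and Torin1 (vertical), with the diagonal of equal means and dashed lines at the 95th percentile of receptor genes, 3.70 and 3.76. The 17 genes below both lines sit close to the diagonal, and the 10 called genes lie above both lines.

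Of the 4 TIMP genes 1 rose, 0 fell and 3 were not called. Timp3, whose product binds the matrix and inhibits MMPs, ADAMTS proteases and the sheddase ADAM17, read 3.43, 3.98 and 4.09 in DMSO and 5.48, 5.60 and 6.95 in Torin1. No value overlapped, and Torin1 3 was the highest by 1.35. The rise was 2.17 ± 0.39 (SE; adjusted p = 0.0133, limma), or 4.52-fold. Its DMSO mean of 3.83 was close to the receptor genes' 95th percentile, so the fold is uncertain. Without DMSO 1, the lowest array, the rise of 1.97 missed the threshold (adjusted p = 0.0517). Without Torin1 3 it was 1.71 and called (adjusted p = 0.00205; 0.00205 to 0.0568 over all alternatives).

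Timp1, a secreted inhibitor, read 4.46, 4.21 and 4.52 in DMSO and 5.58, 6.34 and 4.35 in Torin1. Torin1 1 and 2 stood above all DMSO arrays, and Torin1 3 lay among them. The difference of 1.03 ± 0.45 was not called (adjusted p = 0.220). Timp2, whose product takes part in the activation of proMMP2, read 5.36, 5.91 and 5.72 against 5.35, 5.04 and 5.31. The values did not overlap, by 0.01, and the difference of -0.43 ± 0.16 was not called (adjusted p = 0.139). Timp4 lay within the receptor genes' range, at 3.07 to 3.21 in DMSO and 2.92 to 3.21 in Torin1 (adjusted p = 0.828).

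Several of these genes split the Torin1 arrays. In 5 of 49 genes (10.2%) the 3 Torin1 values ranged over more than 1 log2 unit, beside 2.40% of all genes, and in the DMSO arrays this held for 0 of 49 and 0.469% of all genes. The 5 were Adamts5, Adamts6, Mmp14, Timp1 and Timp3. In each of them Torin1 3 lay farther from the mean of Torin1 1 and 2 than these 2 lay from each other. It exceeded the mean of Torin1 1 and 2 by 1.86 in Adamts5, 1.41 in Timp3 and 0.88 in Adamts6. In Mmp14 and Timp1 it fell short of that mean (-1.55 and -1.60). Over the 49 genes, differences between Torin1 3 and the other Torin1 arrays had an SD of 0.55 and 0.60, against 0.27 between Torin1 1 and 2 and 0.23 to 0.27 among DMSO arrays. On Torin1 3 the summed cumulus and oocyte markers were the highest of the Torin1 arrays, at 3819 and 8483. Such a linear sum weighs bright genes most, and single cumulus markers went both ways on this array. Fshr was highest there (6.60 against 5.27 and 4.92 on Torin1 1 and 2) and Amhr2 lowest (2.96 against 4.39 and 4.76). The endothelial sum was the lowest, at 199, and so was Cdh5, at 5.54 against 6.54 and 7.22 on Torin1 1 and 2. The part of these marker differences was not tested.

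Without Torin1 3, 13 of 49 genes were called, 6 higher and 7 lower, where 3083 of 22180 genes (13.9%) were called in the same fit, 6.26% higher and 7.64% lower. Timp1 and Mmp14 were then higher, by 1.56 ± 0.22 and 0.66 ± 0.14 (SE; adjusted p = 0.00495 and 0.0251, limma). Adamts6 and Adamts5 were lower (-0.96 ± 0.17 and -0.73 ± 0.17, adjusted p = 0.0140 and 0.0344). Adamts5 on Torin1 1 and 2 (3.15 and 3.46) lay below the receptor genes' 95th percentile of 3.76, so the size of its fall is uncertain. Adamtsl2 lost its call, and the other 9 called genes kept theirs. Over all alternatives the adjusted p ran from 0.00282 to 0.428 for Timp1, 0.0251 to 0.986 for Mmp14, 0.0140 to 0.420 for Adamts6 and 0.0344 to 0.999 for Adamts5. The difference of Adamts5 was above 0 without Torin1 1 (0.27), Torin1 2 (0.12) or DMSO 1 (0.02), and that of Mmp14 below 0 without Torin1 1 (-0.03) or Torin1 2 (-0.20). Timp1 stayed above 0 (0.57 to 1.56) and Adamts6 below 0 (-0.96 to -0.41) under all 15 alternatives, called in 2 of them each.

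**Figure D4:**
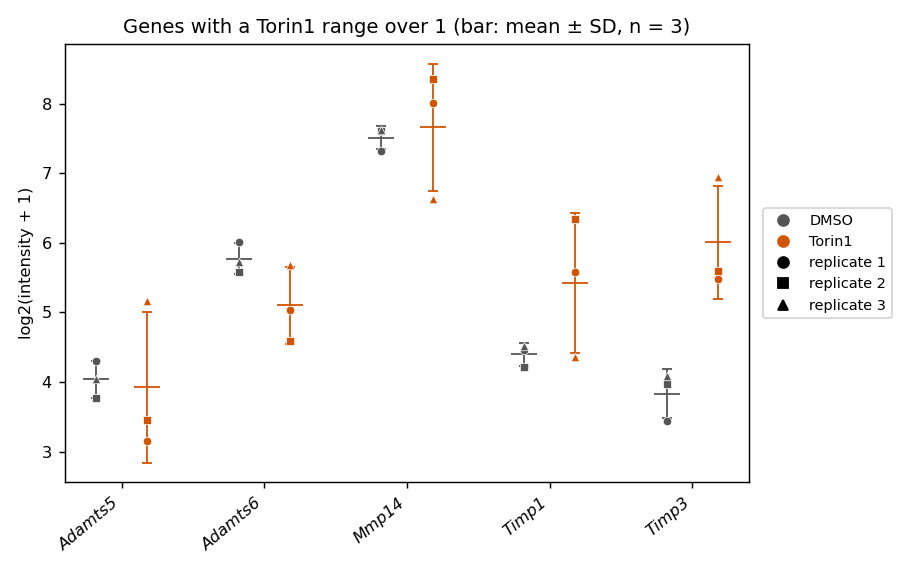
Values on each array, as log2(intensity + 1), of the 5 genes whose Torin1 arrays ranged over more than 1 unit, with the mean and SD of 3 arrays. Torin1 replicate 3 (triangle) is the highest Torin1 value in Adamts5, Adamts6 and Timp3 and the lowest in Mmp14 and Timp1.

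Further genes of the pathway were read in lists that were chosen with earlier results of these data known. Over all genes 12.1% were called, and 19.5% of those above the receptor genes' range in both groups. Called were 18.8% of the substrates, 25% of the proenzyme activation list and 27.3% of the other inhibitors and clearance list. In the later lists 47.1% of the inducers, 0% of the ADAM and 20% of the astacin proteases were called. In such short lists, the shares other than those of the inducers and ADAM proteases lay near that of all genes above the range. Among 16 substrates of the proteases 2 rose, 1 fell and 13 were not called. Vcan, the versican gene, read 6.37, 6.76 and 7.01 in DMSO and 7.61, 7.70 and 7.83 in Torin1, a rise of 1.00 ± 0.16 (SE; adjusted p = 0.00887, limma) without overlap. Tnc, for tenascin C, rose by 1.90 ± 0.24, and Nid2, a basement membrane nidogen gene, fell by 2.16 ± 0.22. Among 12 genes of proenzyme activation 3 rose, 0 fell and 9 were not called. They were Plaur, the urokinase receptor gene, at 4.08 ± 0.34, and the proprotein convertase genes Pcsk6 and Furin, at 1.47 ± 0.12 and 0.47 ± 0.07. The DMSO mean of Plaur, 3.58, lay within the receptor genes' range, so the size of its rise is uncertain (3.01 with pseudocount 16). The urokinase gene Plau itself, at 0.06 ± 0.18, was not called (adjusted p = 0.913). Its 3 Torin1 arrays read 4.10, 4.29 and 4.83, so that without Torin1 3 the difference was -0.15.

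Among 11 genes listed as other inhibitors and clearance, not all strictly of these roles, 0 rose, 3 fell and 8 were not called. A2m, for the broad protease inhibitor alpha-2-macroglobulin, fell by 1.29 ± 0.24 (adjusted p = 0.0161) and lost its call without DMSO 2 or Torin1 2 (adjusted p = 0.0508 and 0.0544). Pcolce, an enhancer of procollagen C-proteinase, fell by 0.80 ± 0.12. Lrp1, for the endocytic receptor that clears several MMPs and TIMPs, fell by 0.50 ± 0.11. Of the leave-one-out fits, the one without Torin1 3 kept this call and those without DMSO 1, DMSO 2, DMSO 3, Torin1 1 or Torin1 2 lost it, at 0.0899 or less. Reck, for a membrane-anchored MMP inhibitor, was not called (-0.34 ± 0.16, adjusted p = 0.275).

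Of 17 inducers and transcription factors linked to these genes 8 rose, 0 fell and 9 were not called. Pgr, the progesterone receptor gene that drives Adamts1 in ovulatory granulosa cells, lay within the receptor genes' range at 2.94 to 3.14 in DMSO and 2.98 to 3.34 in Torin1, and was not called (adjusted p = 0.824). Among 13 ADAM proteases, relatives that shed membrane proteins, 0 were called by limma (2 at an unadjusted p below 0.05). Of 5 astacin proteases 1 was called. This was Bmp1, the procollagen C-proteinase gene, which rose by 1.37 ± 0.23 while its enhancer Pcolce fell.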

How the data were processed

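Per the labels' protocols, RNA was turned into cDNA and amplified by a NuGEN Ovation Pico kit, then labelled with biotin. The deposited intensities, 1 per probe set and array on a linear scale, were made by the authors through RMA, with GCOS and version 1.1 of Affymetrix Expression Console named in the submitters' processing notes. Their settings are not stated there. RMA imposes a common distribution on the arrays, so each change is relative to the other transcripts.

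Of 41345 probe sets 23521 named 1 gene, 1814 several and 16010 none. Where a gene had several probe sets (4 of the 49 genes), the brightest over 6 arrays was kept. All 49 symbols matched RefSeq. On log2(intensity + 1), with pseudocount 1, limma 3.58.1 in R 4.3.3 (lmFit, eBayes, two-sided, no covariate, no filter) was fitted to 22180 genes and tested on simulated data. Groups came from the sample titles. Same-numbered samples did not deviate together (r = -0.21, -0.30 and -0.15), so no block was used. Samples of unlike number had r from -0.12 (DMSO 3 and Torin1 1) to 0.31 (DMSO 2 and Torin1 1), and a pairing other than by number was not tested. The description of Torin1 sample 3 repeats the short name of sample 2, and averaging both was an alternative.

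Members, gene lists and named genes were chosen with earlier results of these data known. Named were all called members, 12 fixed members, up to 3 called genes of each pathway list and 7 fixed ones. Adamts6, Adamts7, Adamts10, Adamtsl4, Mmp12, Fos and Fosl2 were added after their values were seen. Of the pathway lists Fbn1, Spp1, Runx2, Fosl1 and Nfkb1 were not analysed here. Exact permutation of 3 against 3 cannot pass 0.05, so none was used. The number of arrays limits the precision.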

Additional observations from a re-analysis of the deposited data

Results flagged for a closer look

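A second probe set for Mmp11, which the comparison left aside as the dimmer of 2, also read lower with Torin1. Its arrays read 6.48, 6.15 and 6.18 in DMSO and 5.19, 5.17 and 4.73 in Torin1, a difference of -1.24 ± 0.16 (SE; limma adjusted p = 0.00945 over all 41345 probe sets). The brighter probe set gave -1.50 in the same samples. In this fit over all probe sets Adamts9 and Adamtsl2 missed the threshold (limma adjusted p = 0.0778 and 0.0733). The other called genes kept their calls there.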

How the results depend on the processing

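The calls of the 49 genes were the same 10 with pseudocount 0, the mean of probe sets, quantile normalization, arrays centred on the median, and an intensity trend. Pseudocount 16 left 7 of them (without Adamts9, Adamtsl2 and Timp3), and the restriction to genes above the median gene left 9 of 18 tested. Counting Torin1 samples 2 and 3 as 1 sample gave 11, and the leave-one-out fits 8 to 13. With the replicate block 9 were called, with Adamts12 and Adamtsl2 lost (adjusted p = 0.0511 and 0.0930) and Adamts7 gained (adjusted p = 0.0482). Over all genes the block gave 1565 calls in place of 2678, and the leave-one-out fits 1518 to 3083; the pathway lists gave 16 to 22 over all alternatives.

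Changes of sign, the cause of which was not tested, were seen among the named genes in these 8, all without a call in the full set. In leave-one-out fits Adamts4 ran from -0.084 to 0.080 (positive without Torin1 3), Adamts5 from -0.73 to 0.27 (positive without DMSO 1, at 0.02, Torin1 1, or Torin1 2, at 0.12), and Mmp14 from -0.20 (without Torin1 2) to 0.66, with -0.03 without Torin1 1. Mmp9 ran from -0.016 (without Torin1 3) to 0.46, Timp4 from -0.12 to 0.018 (without Torin1 2), Pgr from -0.047 (without Torin1 3) to 0.13, Plau from -0.15 (without Torin1 3) to 0.22 and Fos from -0.029 (without Torin1 3) to 0.45. With Torin1 samples 2 and 3 as 1 sample Adamts4 was at 0.0028 and Plau at -0.015, and with pseudocount 16 Adamts5 was at 0.0028. Of 592 values of named genes under an alternative, 546 kept direction and side of the threshold, 25 lost the call, 7 gained one and 14 changed sign. Dim probe sets limit what can be said of the 17 genes within the receptor genes' range. The same holds for the 7 genes above it in only 1 group (Adamts3, Adamts8, Adamtsl4, Mmp9, Mmp17, Mmp19 and Mmp28).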
